A study of Mus musculus with 9 samples.

Results

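The progenitor surface receptors are 7 genes, Kit, Flt3, Cd34, Eng, Procr, Slamf1 and Cd27, whose proteins are the antigens by which blood stem cells and early progenitors are commonly sorted. They were found by matching the accession of every array probe to a RefSeq gene table, which gave 8 probes for the 7 genes (2 for Slamf1, 1 for each other gene) out of 41174 probes on the array, of which 23374 were matched to 16535 named genes. Expression was measured in FDCPmix cells, which grow as multipotent mouse blood progenitors for as long as IL-3 is supplied. The cells were transduced with lentivirus carrying a short hairpin RNA (shRNA), by which the transcript of a chosen gene is reduced, against Gata2 (Gata2 KD, shGata2 in the Lentilox vector) or against Pu.1, the common name of Spi1 (Pu.1 KD, shPu1 in the same vector), or with empty virus (EV). All 3 groups had 3 arrays each, all cells were kept in self-renewal conditions, and live cells with GFP were taken by flow sorting at day 5. The triplicate was of transduced samples, and the labels do not say whether they began as separate cultures, so p-values measure the spread between these samples, which may be technical.

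In the stem and progenitor compartment these receptors mark successive stages. KIT, the receptor tyrosine kinase for stem cell factor, is carried by stem cells and most early progenitors and is kept by mast cells, whereas FLT3, the related kinase for FLT3 ligand, appears on multipotent progenitors and on dendritic cell precursors. CD150 (Slamf1), endoglin (Eng) and EPCR (Procr) are used to enrich mouse long-term stem cells, CD34 is acquired as these cells lose long-term activity, and CD27 is carried by multipotent progenitors and lymphocytes.

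The arrays were of similar quality. Between 80.4% and 89.6% of the 43379 non-control spots were well above background, no spot was saturated, and all 8 probes of the receptor genes were well above background on all 9 arrays. A level is given throughout as log2 of the background-subtracted signal minus the 75th percentile of its array, and since a level depends on the probe, levels of different genes are not compared. The 9 arrays lay on 3 slides, each with 1 array of every group. Over the 12711 dim probes (mean level under -3) the median difference from the other arrays of the group was -0.73 for EV replicate 2, -0.46 for Gata2 KD replicate 1 and -0.47 for Pu.1 KD replicate 2, all on slide 3, and 0.65 for EV replicate 3 on slide 2. Over the 10100 probes above 0 it was 0.065 for EV replicate 2, 0.13 for Gata2 KD replicate 1, 0.13 for Pu.1 KD replicate 2 and 0.076 for EV replicate 3. For EV replicate 1 it was -0.13. Arrays of a slide deviated together from their group means (mean r = 0.45 over 9 pairs, against -0.22 between slides). The targeted genes followed the labels: Gata2 was 4.78 ± 0.27 (SD, n = 3) in EV, 3.14 ± 0.37 in Gata2 KD and 4.62 ± 0.19 in Pu.1 KD, and Spi1 was -1.89 ± 0.20, -0.52 ± 0.16 and -3.62 ± 0.067. Both cuts passed the test (adjusted p = 0.00398 for Gata2 and 0.0018 for Spi1 by limma with Benjamini-Hochberg adjustment over 36585 probes, the test used for all comparisons), and Spi1 itself rose by 1.37 in Gata2 KD (adjusted p = 0.00129).

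Against EV, Gata2 KD changed 4 of the 7 genes at an adjusted p under 0.05, with Cd34, Procr and Kit higher and Slamf1 lower, and Pu.1 KD changed 3, with Kit and Slamf1 higher and Cd34 lower. Over all tested probes, 5.17% were called in Gata2 KD (2.83% higher and 2.33% lower) and 2.63% in Pu.1 KD (1.23% higher and 1.4% lower). Over genes at 1 probe each the shares were larger, with 4.05% higher and 3.07% lower in Gata2 KD and 1.41% and 2.12% in Pu.1 KD. In the direct comparison of the knockdowns, 5 of the 7 genes were called, beside 9.61% of all probes (4.68% higher and 4.94% lower in Gata2 KD), with Cd34 and Procr higher in Gata2 KD and Slamf1, Kit and Eng higher in Pu.1 KD. The arrays of these 5 genes did not overlap between the knockdowns, as was so for 26% of all probes. Flt3 and Cd27 were called in no comparison and had unadjusted p-values of 0.182 or more. Both comparisons with EV use the same 3 control arrays, so the contrast between the knockdowns is the test of whether their effects differ.

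Without EV replicate 3 the counts were 4 in Gata2 KD, 2 in Pu.1 KD and 5 between the knockdowns, the lost call being Cd34 in Pu.1 KD. In bulk RNA, fewer cells of a type and less RNA per cell cannot be told apart.

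**Figure D1:**
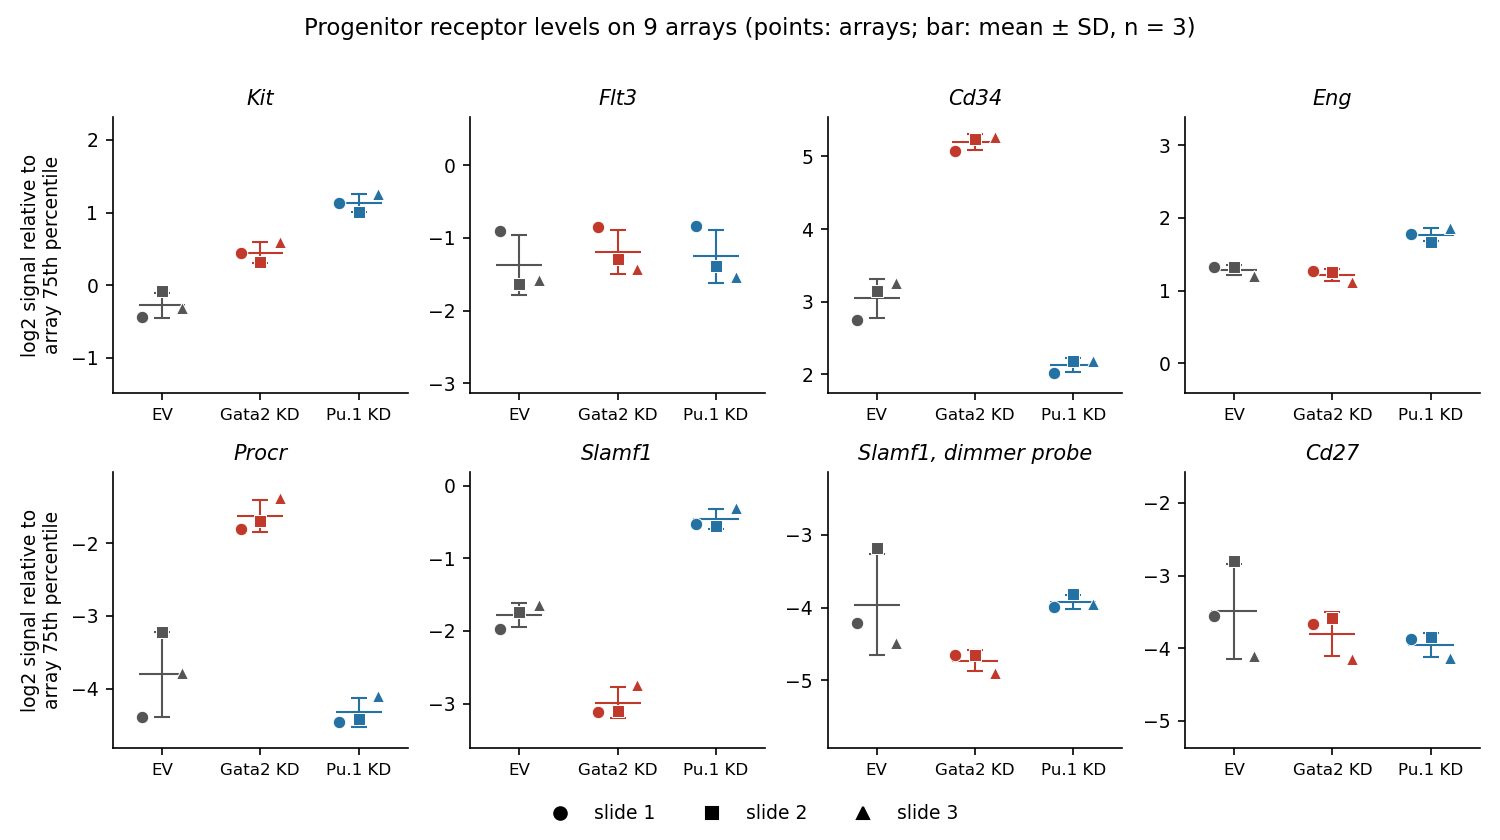
Levels of the 7 receptor genes on the 9 arrays, with the log2 signal relative to the 75th percentile of the array on the vertical axis, 1 point per array, the point shape giving the slide, and bars for the mean ± SD of 3 arrays. The span of the axis is the same in every panel, and its position follows the probe; Cd34, Kit and Slamf1 separate all 3 groups, and EV is the middle group for Cd34 and Slamf1 and the lowest for Kit.

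Markers of several blood lineages moved on the same arrays. In Gata2 KD all 10 tested neutrophil markers rose (median 2.98), as did 7 of 8 monocyte and macrophage markers (median 2.92) and 3 of 8 dendritic cell markers (median 0.13), while 8 of 11 mast cell and basophil markers (median -1.25) and 3 of 9 erythroid markers fell, and 2 of 7 megakaryocyte markers rose and 1 fell. In Pu.1 KD 8 of 10 neutrophil markers (median -1.37), 2 of 8 monocyte markers and 2 of 8 dendritic cell markers fell, 2 mast cell markers rose and 3 fell, 2 of 9 erythroid markers rose, and 2 of 7 megakaryocyte markers rose and 1 fell. Over all genes, 4.05% were called higher and 3.07% lower in Gata2 KD and 1.41% and 2.12% in Pu.1 KD.

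The log2 summed level of the neutrophil list ran from 7.88 to 8.06 in EV, from 10.08 to 10.34 in Gata2 KD and from 6.69 to 6.93 in Pu.1 KD, and that of the monocyte list from 2.24 to 2.42, 5.33 to 5.50 and 1.36 to 1.57. These sums, and that of the dendritic list, have the group order of Cd34, and their part in the changes of Cd34, Procr and Slamf1 was not tested. The mast cell sum was lowest in Gata2 KD, at 4.59 to 4.71 against 6.96 to 7.15 in EV and 6.48 to 6.60 in Pu.1 KD. The megakaryocyte sum was highest in Pu.1 KD, at 6.83 to 7.03 against 5.44 to 5.76 in EV and 5.61 to 6.27 in Gata2 KD, and so was the erythroid sum (4.66 to 4.89 against 4.20 to 4.51 and 3.74 to 4.21), as were Kit, Eng and Slamf1, and the part of these markers was not tested either. A sum adds unlogged levels, so its brightest probes weigh most and it need not show a shift of the whole list. Pf4 (6.73 in Pu.1 KD) gave most of the megakaryocyte sum there, while Gp1ba fell by 1.34. Cd74 (4.85) and H2-Ab1 (4.05) gave most of the dendritic sum in Gata2 KD, where 5 of the 8 genes of that list were not called against EV. Hba-a1 and Tfrc gave most of the erythroid sum in Pu.1 KD, and neither was called against EV (0.75 and 0.038).

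Endothelial cells also carry CD34, endoglin and EPCR, and of 9 endothelial markers only Vwf, which megakaryocytes share, was called against EV (0.82 in Gata2 KD and 0.71 in Pu.1 KD). Of 8 lymphoid markers, limma called 0 in either knockdown against EV, and 0 had an unadjusted p under 0.05. In EV all tested markers of these lists, lymphoid ones included, but 1 of the monocyte list were well above background on at least 1 array, so detection alone did not set lineages apart.

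Cd34, Kit and Slamf1 were the genes called against EV in both knockdowns, so their promoter windows are shown. Each runs from 250 bases before to 50 bases after the annotated transcription start in RefSeq on GRCm38.p6, whereas the array was designed on mm8. Capitals mark a match to the GATA letters searched (AGATAA or TGATAA, on both strands), and position -1 is the base before the start.
Slamf1, chr1:171766882-171767181, plus strand: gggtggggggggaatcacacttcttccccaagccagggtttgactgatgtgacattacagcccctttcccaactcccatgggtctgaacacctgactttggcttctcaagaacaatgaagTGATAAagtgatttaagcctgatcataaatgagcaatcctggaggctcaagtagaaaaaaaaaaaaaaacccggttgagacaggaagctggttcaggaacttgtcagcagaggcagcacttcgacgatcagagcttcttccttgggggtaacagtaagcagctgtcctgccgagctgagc
Cd34, chr1:194938571-194938870, plus strand: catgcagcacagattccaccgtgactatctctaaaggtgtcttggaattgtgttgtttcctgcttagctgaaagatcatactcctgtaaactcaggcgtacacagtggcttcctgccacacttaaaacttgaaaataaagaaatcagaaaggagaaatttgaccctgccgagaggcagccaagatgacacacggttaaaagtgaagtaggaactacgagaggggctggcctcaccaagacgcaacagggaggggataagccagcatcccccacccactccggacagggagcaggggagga
Kit, chr5:75574737-75575036, plus strand: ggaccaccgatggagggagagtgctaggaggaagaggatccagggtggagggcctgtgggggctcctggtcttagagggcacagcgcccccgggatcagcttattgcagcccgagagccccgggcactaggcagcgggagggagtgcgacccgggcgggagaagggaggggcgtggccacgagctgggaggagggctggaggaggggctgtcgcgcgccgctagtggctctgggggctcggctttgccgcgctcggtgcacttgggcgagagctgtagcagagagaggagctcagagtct
RefSeq lists 2 windows for Kit with starts a few bases apart, of which the first is shown. The Slamf1 window held TGATAA on its plus strand at -130 to -125, and the windows of Cd34 and Kit held no match to AGATAA or TGATAA. Of all 32851 windows of this length, 18.6% held such a match. The letters GGAAGT, the core of the PU.1 motif, were absent from these 3 windows and were found on the minus strand of the Eng window at -53 to -48 and of the Flt3 window at -75 to -70, beside 23.8% of all windows. The windows of Procr and Cd27 held neither set of letters. The study also used the wider GATA motif WGATAR (W for A or T, R for A or G), which takes in AGATAG and TGATAG. These were not searched. The windows of Cd34 and Cd27, for example, hold AGATAG on the minus strand, so the lack of a match above does not mean that WGATAR is absent. A match is a description of the letters and not of a bound site.

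Kit, which encodes the stem cell factor receptor, rose in both knockdowns and more in Pu.1 KD. The EV arrays read -0.43, -0.31 and -0.085 (replicates 1 to 3, here and in all lists of 3 values), the Gata2 KD arrays 0.60, 0.32 and 0.44, and the Pu.1 KD arrays 1.01, 1.26 and 1.13. The groups did not overlap, with every EV array lowest and every Pu.1 KD array highest. The probe is printed 10 times per array, and the SD between its single spots was 0.057 to 0.15. The value of an array is the mean of its spots, and the SD of these means within a group was 0.13 to 0.18.

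Kit was 2.66-fold higher in Pu.1 KD than in EV (log2 change 1.41, SE 0.15, 95% CI 1.06 to 1.76, adjusted p = 0.00352), with 1.56, 1.10 and 1.57 within slides 1 to 3. In Gata2 KD it was 1.66-fold higher (log2 change 0.73, SE 0.15, 95% CI 0.38 to 1.07, adjusted p = 0.0291), with 0.87, 0.40 and 0.91 within slides. Between the knockdowns Kit was 1.60-fold lower in Gata2 KD (log2 difference -0.68, SE 0.15, 95% CI -1.03 to -0.34, adjusted p = 0.0242). The rise in Pu.1 KD was called under all 22 alternative settings, with values of 1.26 to 1.51. The rise in Gata2 KD kept its direction in all 22 and lost its call in 11, among them scaling to the median (adjusted p = 0.132), a fit of the 2 groups alone (0.105) and the fit without EV replicate 1 (0.0949), EV replicate 2 (0.0975), Gata2 KD replicate 1 (0.101), 2 (0.0733) or 3 (0.101), or Pu.1 KD replicate 1 (0.0536) or 3 (0.0592). The difference between the knockdowns lost its call in 8, among them median scaling (0.156) and the fits without Gata2 KD replicate 2 (0.113) or 3 (0.0859) or Pu.1 KD replicate 1 (0.0541), 2 (0.0998) or 3 (0.0809).

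Flt3, which encodes the FLT3 ligand receptor, gave no call in either knockdown. The EV arrays read -0.90, -1.57 and -1.64, the Gata2 KD arrays -1.43, -1.28 and -0.85, and the Pu.1 KD arrays -1.39, -1.54 and -0.84. All 3 groups overlapped, and in each the array on slide 1 was highest. The change was 0.18 in Gata2 KD (95% CI -0.45 to 0.81, adjusted p = 0.915) and 0.12 in Pu.1 KD (95% CI -0.51 to 0.75, adjusted p = 0.996). Changes of 2-fold in either direction lay outside both intervals. With the slide as a block the intervals were narrower, at -0.064 to 0.43 and -0.13 to 0.36.

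The ligands, adaptors and kinases that act with KIT and FLT3 moved in both directions. Of 33 tested genes of this list, 3 rose and 5 fell in Gata2 KD (median change -0.045), and 3 rose and 2 fell in Pu.1 KD (median -0.021), beside medians over all 15808 genes of -0.11 and -0.047 and, as for all lists, 4.05% of genes called higher and 3.07% lower in Gata2 KD and 1.41% and 2.12% in Pu.1 KD. In Gata2 KD the largest called changes were falls of Dok2, an adaptor that dampens kinase signalling (-1.34, SE 0.12), Stat5a, a transcription factor activated by cytokine receptors (-1.09, SE 0.15), and Sos1, an exchange factor for Ras (-1.05, SE 0.15). In Pu.1 KD they were falls of the Src-family kinase Lyn (-1.18, SE 0.22) and of Jak2, the kinase of many cytokine receptors (-1.04, SE 0.16), and a rise of the FLT3 ligand gene Flt3l (0.85, SE 0.16). Their adjusted p-values ran from 0.000336 for Dok2 to 0.0327 for Flt3l. Kitl, the gene of the KIT ligand, changed by -0.045 (adjusted p = 0.985) in Gata2 KD and 0.086 (adjusted p = 1) in Pu.1 KD and was not called.

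Cd34, which encodes a sialomucin of progenitor and endothelial surfaces, moved in opposite directions. The EV arrays read 2.74, 3.25 and 3.15, the Gata2 KD arrays 5.27, 5.25 and 5.07, and the Pu.1 KD arrays 2.18, 2.19 and 2.01. No array of one group reached into another, with Gata2 KD highest and Pu.1 KD lowest, and the spread was widest among the EV arrays. In Gata2 KD Cd34 was 4.43-fold higher (log2 change 2.15, SE 0.17, 95% CI 1.77 to 2.53, adjusted p = 0.000156), with 2.33, 2.10 and 2.02 within slides 1 to 3. The call held under all 22 alternatives, with values of 1.99 to 2.25.

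In Pu.1 KD Cd34 was 1.89-fold lower (log2 change -0.92, SE 0.17, 95% CI -1.30 to -0.54, adjusted p = 0.0263), with -0.73, -0.97 and -1.07 within slides. The fall was present under all 22 alternatives (-1.07 to -0.82) and lost its call in 11, among them scaling to the median (adjusted p = 0.203), a fit of the 2 groups alone (0.115) and the fits without EV replicate 2 (0.0918) or 3 (0.0762), Gata2 KD replicate 2 (0.0627) or 3 (0.0522), or Pu.1 KD replicate 1 (0.102), 2 (0.0925) or 3 (0.114). With the slide as a block the adjusted p was 0.00907. Between the knockdowns the level differed 8.38-fold (log2 difference 3.07, SE 0.17), the largest difference of the 7 genes.

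Of 8 tested genes of the CD34 family and related sialomucins, 1 rose and 1 fell in Gata2 KD and 1 fell in Pu.1 KD, with list medians of 0.092 and -0.17. Podxl, a member of the CD34 family, fell by 1.85 in Gata2 KD (SE 0.36, adjusted p = 0.0222) and was not called in Pu.1 KD (0.66, adjusted p = 0.58).

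Eng, which encodes endoglin, a coreceptor of the TGF-beta superfamily, was close to EV in Gata2 KD and higher in Pu.1 KD. The EV arrays read 1.32, 1.20 and 1.33, the Gata2 KD arrays 1.12, 1.25 and 1.27, and the Pu.1 KD arrays 1.68, 1.86 and 1.79. EV and Gata2 KD overlapped, and all 3 Pu.1 KD arrays lay above both. Groups did not overlap between Pu.1 KD and EV for Eng and for the 3 called genes, against 17.2% of all probes. The difference from EV was 1.40-fold in Pu.1 KD (log2 change 0.49, SE 0.12, 95% CI 0.20 to 0.77) and missed the threshold (adjusted p = 0.098), with 0.46, 0.35 and 0.65 within slides 1 to 3; it passed in 3 of 22 alternatives, normexp background correction (0.0258), the deposited log2 values (0.00879) and eBayes with trend and robust settings (0.0306).

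In Gata2 KD the change of Eng was -0.072 (95% CI -0.36 to 0.21, adjusted p = 0.931), an interval that holds no 1.5-fold change. Between the knockdowns Eng was 1.47-fold lower in Gata2 KD (log2 difference -0.56, SE 0.12, adjusted p = 0.0246), with -0.52, -0.42 and -0.74 within slides. That call was lost in 9 of 22 alternatives, among them median scaling (adjusted p = 0.165) and the fits without Gata2 KD replicate 1 (0.0844), 2 (0.0851) or 3 (0.0702), or Pu.1 KD replicate 1 (0.0584), 2 (0.102) or 3 (0.0864).

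The list of the TGF-beta superfamily held ligands, receptors and Smads together with Smurf1, Smurf2, Id1 and Id3. Of its 25 genes, 22 were tested (Tgfb2, Gdf2 and Bmpr1a were too dim), of which 1 fell in Gata2 KD and 1 rose and 1 fell in Pu.1 KD, with medians of -0.052 and -0.13, where all genes gave 4.05% higher and 3.07% lower calls in Gata2 KD and 1.41% and 2.12% in Pu.1 KD. Tgfbr2, the ligand-binding TGF-beta receptor, fell in both, by 0.89 (SE 0.14, adjusted p = 0.00664) and by 1.32 (SE 0.14, adjusted p = 0.00298). Smad3, which carries the receptor's signal to the nucleus, rose by 1.08 in Pu.1 KD (SE 0.17, adjusted p = 0.0144). Acvrl1, the type I receptor that pairs with endoglin in endothelium, was not called (0.12 in Gata2 KD and -0.24 in Pu.1 KD).

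Procr, which encodes the endothelial protein C receptor, rose in Gata2 KD from a dim signal. The EV arrays read -4.40, -3.79 and -3.23, the Gata2 KD arrays -1.38, -1.70 and -1.80, and the Pu.1 KD arrays -4.42, -4.10 and -4.46. All Gata2 KD arrays lay above all others, whereas EV and Pu.1 KD overlapped and EV was the most spread group, with EV replicate 3 highest. The rise in Gata2 KD was 4.52-fold (log2 change 2.18, SE 0.29, 95% CI 1.52 to 2.83, adjusted p = 0.00294), with 2.60, 1.53 and 2.41 within slides 1 to 3. Together with Cd34, Kit and Slamf1, this made 4 of the 7 genes whose groups did not overlap between Gata2 KD and EV, against 19% of all probes.

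The Procr rise was called under all 22 alternatives, but its size depended on the background correction, falling to 1.17 with normexp and reaching 2.47 without EV replicate 3. In Pu.1 KD the change was -0.52 (95% CI -1.18 to 0.13, adjusted p = 0.575). Between the knockdowns Procr differed 6.50-fold (log2 difference 2.70, SE 0.29, adjusted p = 0.000498), or by 1.35 with normexp and 1.70 in the deposited log2 values. The order was Gata2 KD above EV and Pu.1 KD, and these last groups did not differ beyond their spread.

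No other gene of the protein C pathway was called higher by limma. Of 9 tested genes, 1 was called lower in Gata2 KD and 0 were called in Pu.1 KD, where 0 had an unadjusted p under 0.05, and the medians were -0.19 and 0.006. The called gene was F2r, the thrombin receptor PAR1, which fell by 1.35 (SE 0.18, adjusted p = 0.00294). Thbd, which encodes thrombomodulin, changed by 0.21 in Gata2 KD (adjusted p = 0.786) and Proc, the protein C gene itself, by -0.18 (adjusted p = 0.948).

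Slamf1, which encodes CD150, moved opposite to Cd34. On its brighter probe the EV arrays read -1.97, -1.65 and -1.74, the Gata2 KD arrays -2.74, -3.10 and -3.12, and the Pu.1 KD arrays -0.55, -0.31 and -0.52. The 3 groups were fully separate, with Pu.1 KD highest and Gata2 KD lowest. Slamf1 was 2.30-fold lower in Gata2 KD (log2 change -1.20, SE 0.16, 95% CI -1.58 to -0.83, adjusted p = 0.00369), with -1.15, -1.36 and -1.10 within slides 1 to 3. It was 2.51-fold higher in Pu.1 KD (log2 change 1.33, SE 0.16, 95% CI 0.95 to 1.70, adjusted p = 0.00643), with 1.45, 1.19 and 1.34 within slides.

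Between the knockdowns Slamf1 differed 5.77-fold (log2 difference -2.53, SE 0.16, adjusted p = 3.2e-05). With the brighter probe all 3 calls held under each of the 21 alternatives that use it, although the fall in Gata2 KD shrank to -0.76 with normexp. The dimmer Slamf1 probe read -4.22, -4.49 and -3.18 in EV, -4.89, -4.65 and -4.65 in Gata2 KD, and -3.82, -3.95 and -3.99 in Pu.1 KD. Here Gata2 KD was again below both other groups without overlap, but EV replicate 3 lay above all Pu.1 KD arrays, and no comparison was called (Gata2 KD against EV -0.77, adjusted p = 0.273, Pu.1 KD against EV 0.040, 95% CI -0.66 to 0.74, adjusted p = 1). The probes thus disagreed on Pu.1 KD, and with their mean as the value of the gene the change was 0.68 there (adjusted p = 0.118), -0.99 in Gata2 KD (adjusted p = 0.0175) and -1.67 between the knockdowns (adjusted p = 0.00066).

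Of 10 tested SLAM relatives of Slamf1 and their adaptors, 2 rose in Gata2 KD, beside 4.05% of all genes. These were the adaptor gene Sh2d1b1 (EAT-2; 2.17, SE 0.33, adjusted p = 0.00644) and the receptor gene Slamf9 (0.82, SE 0.19, adjusted p = 0.0466), with a list median of -0.19. In Pu.1 KD limma called 0 of the 10, and 1 had an unadjusted p under 0.05, Slamf9 with a change of -0.88 (adjusted p = 0.0558), with a median of -0.090. Cd48, whose protein is absent from CD150-positive stem cells and present on most progenitors, changed by -0.76 in Gata2 KD (adjusted p = 0.064) and 0.056 in Pu.1 KD.

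Cd27, which encodes a TNF receptor family member for the ligand CD70, was dim and was not called. The EV arrays read -3.55, -4.11 and -2.81, the Gata2 KD arrays -4.15, -3.59 and -3.67, and the Pu.1 KD arrays -3.84, -4.14 and -3.87. All groups overlapped, and EV replicate 3 was the highest array, as it was for Procr among the EV and Pu.1 KD arrays. The change was -0.31 in Gata2 KD (95% CI -1.04 to 0.41, adjusted p = 0.831) and -0.46 in Pu.1 KD (95% CI -1.19 to 0.26, adjusted p = 0.736), so a 2-fold fall lay inside both intervals. With the slide as a block the intervals were narrower, at -0.79 to 0.17 and -0.94 to 0.019, and a 2-fold fall lay just outside them.

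Of 14 tested genes among the CD27 ligand, adaptors and TNF receptor relatives, 1 rose and 2 fell in Gata2 KD and 1 rose in Pu.1 KD (medians -0.014 and 0.080). Tnfrsf1a, a receptor for TNF, rose by 2.38 in Gata2 KD (SE 0.19, adjusted p = 0.000191). Tnfrsf9, which encodes the costimulatory receptor 4-1BB, fell by 2.001 (SE 0.15, adjusted p = 0.000122), and Tnfrsf18, which encodes GITR, fell by 1.57 in Gata2 KD (SE 0.16, adjusted p = 0.000826) and rose by 0.88 in Pu.1 KD (SE 0.16, adjusted p = 0.0303). Cd70, the gene of the CD27 ligand, changed by -0.016 and 0.15 and was not called. Over the 6 lists of partners and relatives together, 7 of 96 tested genes rose (7.29%) and 10 fell (10.4%) in Gata2 KD, and 5 rose (5.21%) and 4 fell (4.17%) in Pu.1 KD, beside 4.05% and 3.07% of all genes in Gata2 KD and 1.41% and 2.12% in Pu.1 KD.

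**Figure D2:**
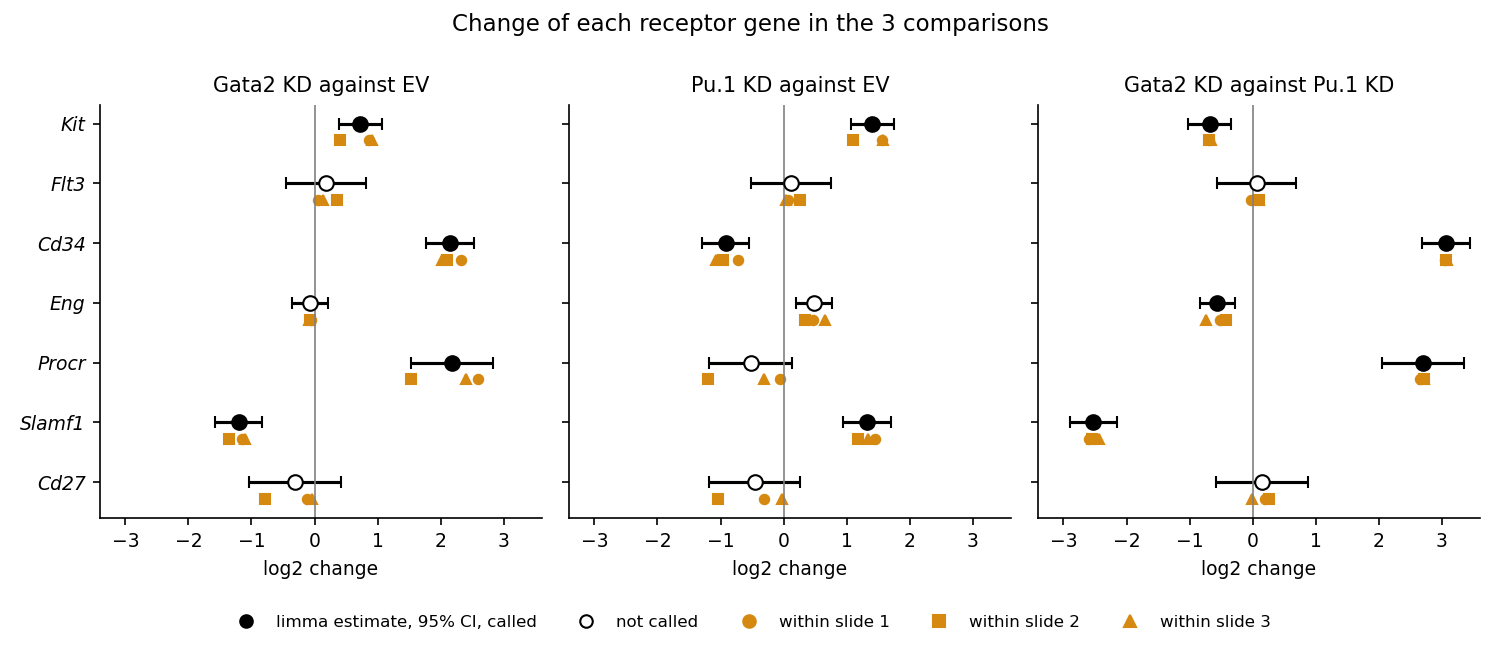
Log2 change of each receptor gene (horizontal axis) in the 3 comparisons, with the limma estimate and its 95% confidence interval in black (filled where the adjusted p was under 0.05, open otherwise) and the differences within slides 1, 2 and 3 in orange. Cd34 and Slamf1 lie on opposite sides of 0 in the 2 comparisons with EV, Kit lies above 0 in both, and the Procr and Cd27 values within slide 2, which holds EV replicate 3, are the lowest of the 3 slides against EV.

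**Figure D3:**
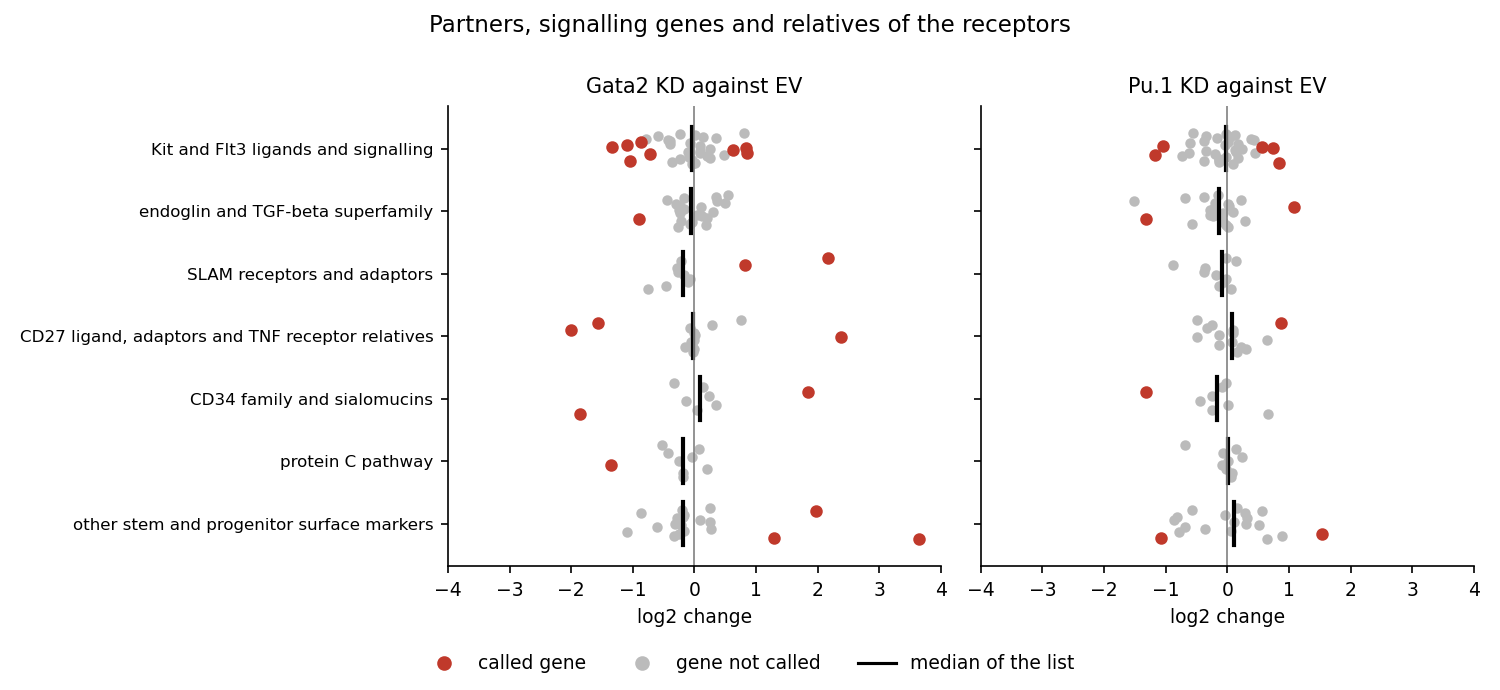
Log2 change of every tested gene (horizontal axis, 1 point per gene, red where called) in the 6 lists of partners, signalling genes and relatives of the receptors and in a list of other stem and progenitor surface markers, for Gata2 KD and Pu.1 KD against EV. Black bars mark list medians, which lie between -0.19 and 0.10 in all lists, and over the lists together called genes lie on both sides of 0.

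The genes whose level followed a called receptor gene most closely were ranked by Pearson correlation over the 9 arrays among 14207 named genes well above background on all arrays. The 9 points share 3 groups, so the coefficients mostly set group means against group means and are given as a description. For Cd34 the closest were Lyz2 (r = 0.996), Lyz1 (0.995) and Gsdmd (0.995), which encode lysozymes, whose similar sequences may share probe signal, and gasdermin D. Lyz2 changed by 2.69 in Gata2 KD and -1.37 in Pu.1 KD. For Slamf1 they were Epdr1 (0.998), Abcg2 (0.996) and Ces2g (0.996), of which Abcg2, the transporter behind the side population of stem cells, changed by -1.09 and 1.34. For Procr they were Rgs14 (0.995), Chn2 (0.994) and Nadk (0.991), and for Kit Plcl2 (0.986), Acrbp (0.975) and Msantd1 (0.971), with Plcl2 at 0.50 in Gata2 KD and 0.95 in Pu.1 KD.

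**Figure D4:**
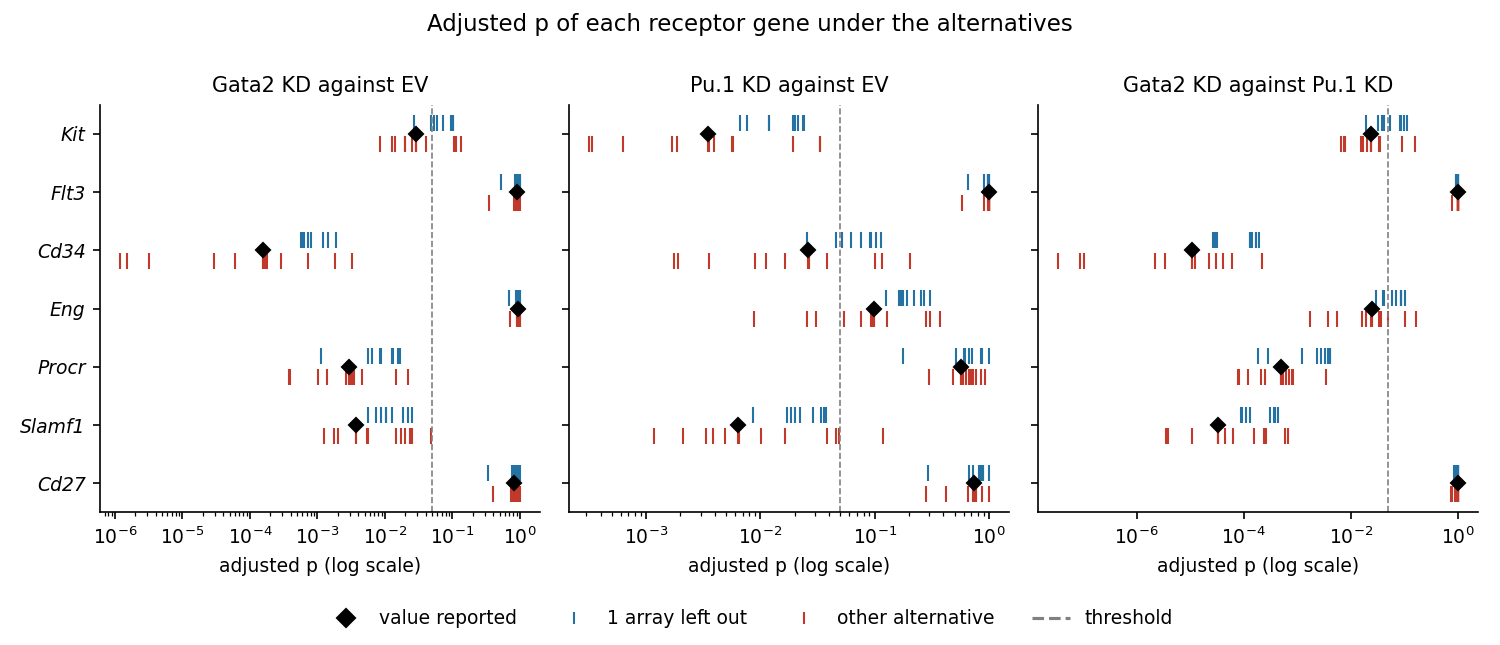
Adjusted p of each receptor gene (log axis) as reported (black diamonds), with each array left out in turn (blue) and under the other alternatives (red); the dashed line is the threshold of 0.05. Cd34 and Procr in Gata2 KD, Slamf1 in Gata2 KD and Kit in Pu.1 KD stay left of the line in all 22 alternatives, whereas Kit in Gata2 KD and Cd34 in Pu.1 KD lie on both sides of it.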

How the data were processed

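Expression was measured on single-color (Cy3) Agilent mouse 4x44K arrays, 1 per sample, from 150 ng of total RNA of sorted FDCPmix cells. The authors deposited the scanner output of Feature Extraction 10.1.1.1, whose intensity columns hold the background-subtracted processed signal, and a table of log2 values, which followed the log2 median spot signal (r of 0.997 or more per array) and had column medians of 7.00 to 7.05; the authors' background and normalization steps for it are not given in the sources used here.

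The processed signal was scaled to the 75th percentile of each array on the log2 scale. Control spots were left out, outlier-flagged spots (47 to 96 per array) were set missing, and spots of a probe were averaged. Probes well above background on at least 3 of 9 arrays with 2 or more values per group (36585) were tested with limma 3.58.1 in R 4.3.3 (1 mean per group over all 9 arrays, eBayes, two-sided), with Benjamini-Hochberg adjustment and a threshold of 0.05. Changes are on the log2 intensity scale, values given as fold are unlogged, and background correction matters most for dim probes. The probe of highest mean level stood for a gene (15808 genes). The code was tested on simulated data. Precision is limited by 3 arrays per group.

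Alternatives were the replicate number or the slide as a block, normexp (offset 50), quantile normalization, median scaling, no or a stricter filter, flagged spots kept, trend and robust eBayes, fits of only the groups compared, the deposited log2 table, the mean of a gene's probes, a 2-fold minimum and each array left out. Normexp used the median spot signal. Same-numbered replicates did not deviate together (r from -0.55 to 0.65 over 9 pairs), so the number was not taken as a pairing, whereas arrays of 1 slide did (r from -0.041 to 0.72). The slide is left out of the fit reported, since the study's methods state no block, and is given as an alternative.

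The receptor genes and all lists were chosen with earlier results of these data known. Named are the 7 genes, both targets, the 3 called genes with the largest change per list and comparison, the 3 genes most like each gene called against EV, and some listed ligands, receptors and relatives, which were chosen after their values were seen. Not every gene that the rule picks from the lists is reported here.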

Additional observations from a re-analysis of the deposited data

How the results depend on the processing

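Of the 7 genes, 4 were called in Gata2 KD against EV, 3 in Pu.1 KD against EV and 5 between the knockdowns. With each array left out in turn these counts ran from 3 to 4, from 2 to 3 and from 3 to 5, the 3 being reached without Gata2 KD replicate 2 or 3 or any 1 of the Pu.1 KD arrays. Between the knockdowns the count was 3 with the replicate block, 3 with median scaling and 3 with a 2-fold minimum. Changes that turned in sign were those of genes not called, with arrays left out: Cd27 in Gata2 KD ran from -0.62 to 0.030 (positive without EV replicate 3), Flt3 in Pu.1 KD from -0.091 to 0.35 (negative without EV replicate 3 or Pu.1 KD replicate 3), and Flt3 between the knockdowns from -0.11 to 0.27 (negative without Gata2 KD replicate 3 or Pu.1 KD replicate 1 or 2). Of 462 values of single genes under alternatives, 413 kept direction and side of the threshold, 40 lost a call, 3 gained one and 6 changed sign.

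With the replicate number as a block, which is no known pairing, the members called were 3, 2 and 3, and the calls over all probes 1167, 227 and 2350 against 1890, 962 and 3517; the calls lost were Kit in Gata2 KD (adjusted p = 0.113), Cd34 in Pu.1 KD (0.101), and Eng (0.103) and Kit (0.0886) between the knockdowns. The slide as a block gave 2924, 1830 and 5170 calls over all probes and left the members called at 4, 3 and 5. Over all alternatives the calls over all probes ran from 1047 to 2924, from 219 to 1830 and from 1891 to 5170. Median scaling moved the share of higher calls in Gata2 KD from 54.8% to 69.4%, and the median change of all probes there from -0.11 to -0.056. The causes were not tested. Values of Procr, Cd27 and the dimmer Slamf1 probe are limited by signal over background, and with 3 arrays per group the changes of Flt3 and Cd27 have wide intervals.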

Other observations

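Other surface markers of stem and progenitor cells, 19 genes on a list beside the receptors above, included the largest rise of any listed progenitor antigen. In Gata2 KD limma called 3 of the 19 higher and 0 lower, 2 having fallen at an unadjusted p under 0.05 (median -0.18), beside 4.05% of all genes called higher and 3.07% called lower. Ly6a, which encodes Sca-1, the antigen that with KIT defines the multipotent fraction of mouse marrow, rose 12.6-fold, although close relatives of the Ly6 family may share its probe signal (log2 change 3.65, SE 0.15, adjusted p = 8e-06). Cd44, an adhesion receptor for hyaluronan, rose 3.93-fold (1.97, SE 0.17, adjusted p = 0.000272), and Thy1, a surface glycoprotein of T cells and of some stem cells, rose 2.44-fold (1.29, SE 0.18, adjusted p = 0.00423).

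In Pu.1 KD 1 of the 19 rose and 1 fell (median 0.10). Thy1 fell 2.10-fold (-1.07, SE 0.18, adjusted p = 0.0206), and Ly6a changed by 0.64 without a call (adjusted p = 0.0683). The log2 summed level of the 19 genes overlapped between the groups, at 7.18 to 7.44 in EV, 7.14 to 7.43 in Gata2 KD and 7.28 to 7.46 in Pu.1 KD.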
